A study of Mus musculus with 6 samples.

Results

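RNA sequencing of mouse vascular smooth muscle cells in culture, which give the vessel wall its tone, was used to describe the ligands and receptors of the platelet-derived growth factor (PDGF) and vascular endothelial growth factor (VEGF) families. The set was fixed by gene name and holds 10 of the 56393 genes in the deposited table. They are the PDGF ligands Pdgfa, Pdgfb, Pdgfc and Pdgfd, the PDGF receptors Pdgfra and Pdgfrb, the VEGF ligands Vegfa and Vegfc, and the VEGF receptors Flt1 and Kdr. All 10 were matched by Ensembl ID and all 10 passed the filter on low counts. Libraries came from cells knocked out for Nono (KO, n = 3) and from wild-type cells (WT, n = 3). Both groups are described as primary cells kept in medium with serum and given no other treatment. The labels give neither the knockout method nor the strain, age or sex of the mice, nor do they state that replicates came from different cultures or animals. The p-values therefore measure only the spread between these libraries, which may be technical. The protein made from Nono binds RNA and DNA and sits in nuclear paraspeckles, and the series asks how its loss relates to vascular calcification and to the transcription of Bmp2.

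PDGF ligands are secreted dimers that bring receptor tyrosine kinases together. PDGF-A and PDGF-C act mainly through the alpha receptor, PDGF-B binds both receptors, and PDGF-D acts mainly through the beta receptor. In the vessel wall, PDGF-B from endothelial cells and platelets drives the migration and division of smooth muscle cells and pericytes, which carry the beta receptor. VEGF-A is a secreted growth factor for endothelial cells, on which KDR (VEGFR2) passes on most of its signal, while FLT1 (VEGFR1) binds it tightly with little signalling and also exists as a soluble decoy. VEGF-C acts on lymphatic vessels. Serum itself contains PDGF, so cells grown in it receive ligand from outside.

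Libraries held 56529170 to 61670083 counts. Their log2 CPM (counts per 1000000, scaled by edgeR's TMM factors) correlated across genes at 0.979 to 0.983 within a genotype and at 0.804 to 0.809 between genotypes, where genes are not independent replicates. Nono was at 56.0, 54.8 and 51.1 CPM in KO, against 523, 502 and 519 CPM in WT, so the libraries went with their labels and transcript was still counted in KO. The Y-linked genes Eif2s3y, Kdm5d, Uty and Ddx3y together reached 149.9 to 163.3 CPM in KO libraries and 0 to 0.0795 CPM in WT libraries. Genotype and this sign of a different source of cells separate the same libraries and cannot be told apart in any comparison here. Of the defining smooth muscle genes, Myh11 was at 0.219 ± 0.218 CPM in KO and 0.467 ± 0.264 CPM in WT (SD, n = 3 each), and Myocd had 0 counts in KO and 79 in WT. The 8 smooth muscle markers summed to 244 to 249.3 CPM in KO and 65.5 to 72.3 CPM in WT. Most of this came from Acta2 in KO and from Smtn in WT (47.8 CPM). All 8 were tested, and 5 rose in KO while Myocd and Synpo2 fell and Myh11 did not pass (edgeR). Of all tested genes, 35.1% were higher in KO and 34.2% lower. Myocd passed the filter on low counts through WT alone. Acta2 was 9.82-fold, Tagln 17.5-fold, Lmod1 5.32-fold and Smtn 1.22-fold higher in KO. Cnn1 was 148-fold higher, with 4 counts over the WT libraries. The calls of Smtn and Synpo2 were each lost under 3 other ways of processing. A list of 8 mesothelial and epithelial markers summed to 9.87 to 13.4 CPM in KO and 77.0 to 84.8 CPM in WT, where most came from Krt19. Of 4 tested in that list, 2 were higher and 2 lower in KO, and Krt18 and Epcam were at 0 in every library. In such bulk samples, fewer cells of a type and less RNA per cell cannot be told apart.

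Across the set, transcripts of the PDGF arm were mostly higher in KO and those of the VEGF receptors lower. Pdgfa, Pdgfc, Pdgfd, Pdgfra and Pdgfrb rose, Pdgfb, Vegfa, Flt1 and Kdr fell, and Vegfc did not pass (edgeR quasi-likelihood test, adjusted p under 0.05 over 18732 genes). That is 9 of 10 members called, where 69.3% of all tested genes were called. The 5 higher members stand against a background of 35.1% higher, and the 4 lower ones against 34.2% lower. In 9 members the values of the 3 KO and 3 WT libraries did not overlap, which was so for 75.5% of all tested genes. At these backgrounds the number of calls is no result about the set. The same shares are the background to every count of calls in the lists of markers and pathway genes. Of the members, 7 had a fitted log2 fold change of at least 1 in size, as had 46.3% of tested genes. The median log2 fold change was 0.57 over the members and 0.03 over all tested genes. Pdgfd and Kdr passed the filter through 1 genotype alone, the other being at 0, so that their difference was a condition of their being tested. The same holds for any other tested gene named here that had 0 counts in 1 genotype.

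**Figure D1:**
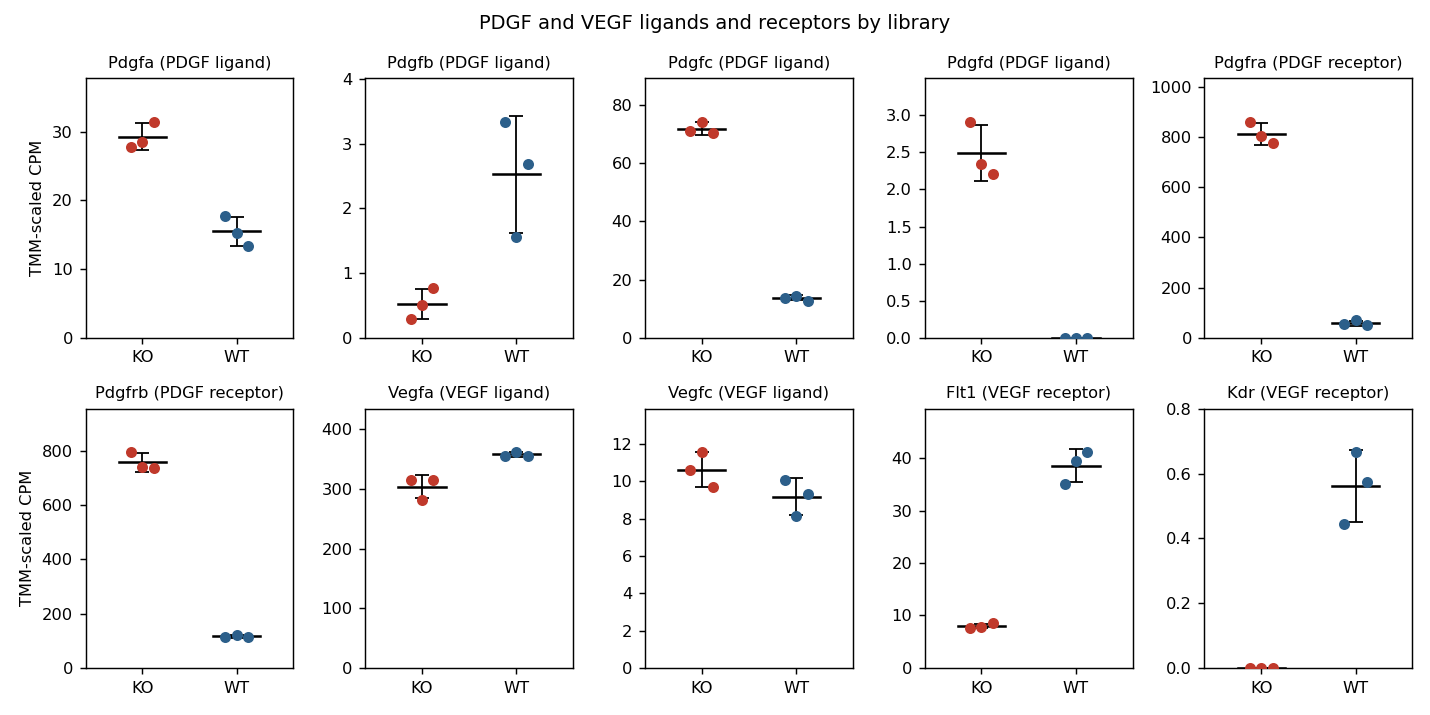
TMM-scaled CPM (y axis, starting at 0) of the 10 members in each KO (left, red) and WT (right, blue) library, with the mean (long bar) and SD (error bar) of 3 libraries. The PDGF receptors sat between 735 and 861 CPM in KO and between 52.1 and 121.7 CPM in WT, while Flt1 and Kdr were lower in every KO library and the values of Vegfc overlapped.

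Promoter windows are printed for the members that rose other than Pdgfrb (Pdgfa, Pdgfc, Pdgfd and Pdgfra) and for both VEGF receptors, which fell. The sequence around these start sites can thus be read beside the direction of change. Each window runs from 250 bases before to 50 bases after the start of a RefSeq transcript on build GRCm38.p6, 5′ to 3′ on the strand of the gene. Windows were taken for 8 of the 10 members. No window was found for Pdgfb, and Pdgfrb was left out of this step in advance, so its promoter is not reported here. Those printed lie at chr5:138994232-138994531 and chr5:138994895-138995194 on the minus strand (Pdgfa, 2 starts), chr3:81036166-81036465 on the plus strand (Pdgfc), chr9:6168236-6168535 on the plus strand (Pdgfd), chr5:75152001-75152300 on the plus strand (Pdgfra), chr5:147725962-147726261 on the minus strand (Flt1) and chr5:75978406-75978705 on the minus strand (Kdr). Capitals mark matches on either strand to the GC box GGGCGG, the TATA box TATAAA, the CCAAT box CCAAT, the hypoxia core ACGTG or the ETS core CCGGAA.
Pdgfa, window 1: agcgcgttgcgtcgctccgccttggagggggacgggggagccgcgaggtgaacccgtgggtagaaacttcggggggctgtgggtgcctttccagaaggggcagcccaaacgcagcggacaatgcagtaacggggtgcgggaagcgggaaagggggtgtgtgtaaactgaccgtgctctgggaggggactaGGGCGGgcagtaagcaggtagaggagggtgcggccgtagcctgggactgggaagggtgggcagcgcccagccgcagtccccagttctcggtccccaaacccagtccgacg
Pdgfa, window 2: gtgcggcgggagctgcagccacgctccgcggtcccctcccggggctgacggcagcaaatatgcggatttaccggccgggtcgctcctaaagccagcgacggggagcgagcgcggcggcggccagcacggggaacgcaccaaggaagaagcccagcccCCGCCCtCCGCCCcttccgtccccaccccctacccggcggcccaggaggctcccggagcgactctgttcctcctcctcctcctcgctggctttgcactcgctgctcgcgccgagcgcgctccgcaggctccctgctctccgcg
Pdgfc: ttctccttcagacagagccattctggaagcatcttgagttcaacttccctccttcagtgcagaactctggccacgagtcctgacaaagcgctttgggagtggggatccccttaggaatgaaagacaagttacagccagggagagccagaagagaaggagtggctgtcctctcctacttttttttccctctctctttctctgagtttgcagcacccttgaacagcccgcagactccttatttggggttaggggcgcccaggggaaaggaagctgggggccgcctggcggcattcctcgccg
Pdgfd: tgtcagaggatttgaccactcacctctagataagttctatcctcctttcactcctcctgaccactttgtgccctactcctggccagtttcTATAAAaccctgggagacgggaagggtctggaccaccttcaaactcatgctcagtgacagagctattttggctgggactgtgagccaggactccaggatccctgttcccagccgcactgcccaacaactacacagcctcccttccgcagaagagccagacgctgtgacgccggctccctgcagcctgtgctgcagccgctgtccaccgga
Pdgfra: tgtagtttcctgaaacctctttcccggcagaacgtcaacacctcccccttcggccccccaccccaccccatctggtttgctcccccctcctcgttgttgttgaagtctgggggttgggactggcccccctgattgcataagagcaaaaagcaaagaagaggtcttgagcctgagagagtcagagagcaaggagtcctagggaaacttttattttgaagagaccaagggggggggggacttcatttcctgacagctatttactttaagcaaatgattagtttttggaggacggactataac
Flt1: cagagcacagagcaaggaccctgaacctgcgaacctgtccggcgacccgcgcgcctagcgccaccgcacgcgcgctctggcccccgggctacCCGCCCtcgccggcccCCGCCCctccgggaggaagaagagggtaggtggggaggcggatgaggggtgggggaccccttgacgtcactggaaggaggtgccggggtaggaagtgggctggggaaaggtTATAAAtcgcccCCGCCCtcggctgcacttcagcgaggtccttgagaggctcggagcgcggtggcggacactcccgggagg
Kdr: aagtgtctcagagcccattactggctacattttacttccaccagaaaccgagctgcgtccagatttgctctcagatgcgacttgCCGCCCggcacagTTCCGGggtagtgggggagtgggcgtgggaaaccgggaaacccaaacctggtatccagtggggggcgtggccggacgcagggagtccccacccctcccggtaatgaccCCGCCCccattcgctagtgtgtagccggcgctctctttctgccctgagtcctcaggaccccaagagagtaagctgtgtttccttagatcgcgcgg

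Among members that rose, the 2 Pdgfa windows held 1 and 2 GC boxes, the Pdgfd window held a TATA box starting 160 bases before the transcript start, and none of the 5 motifs lay in the Pdgfc or Pdgfra window. Among members that fell, the Flt1 window held 3 GC boxes and a TATA box starting 31 bases before the transcript start, and the Kdr window held 2 GC boxes and 1 ETS core. The 2 Vegfa windows held 2 and 1 GC boxes and a CCAAT box each. Window 2 of Vegfa also held a hypoxia core, starting 211 bases before its transcript start. This window (chr17:46025114-46025413, minus strand) lies downstream of window 1 (chr17:46032328-46032627), so the match is not upstream of the start in window 1. The window of Vegfc, which did not pass the test, held 2 GC boxes. Over the 32851 windows of the same length in the RefSeq table, 35.7% held a GC box, 13.6% a TATA box, 37.4% a CCAAT box, 19.6% a hypoxia core and 14.9% an ETS core.

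The G+C content was 67.0% and 73.3% in the Pdgfa windows, 55.0% in that of Pdgfc, 56.7% in that of Pdgfd and 51.0% in that of Pdgfra. It was 70.7% in the Flt1 window, 60.7% in the Kdr window and 62.0% and 59.3% in the Vegfa windows, beside a median of 52.7% over all windows. CpG dinucleotides numbered 24 and 37 in the Pdgfa windows, 8 in those of Pdgfc and Pdgfd, 5 in that of Pdgfra, 29 in that of Flt1 and 19 in that of Kdr. A match is a run of letters and not a bound site, and these motifs were chosen after the members' values were known.

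Pdgfc was the most abundant PDGF ligand in KO per length (FPKM). It encodes a ligand with an extra CUB domain that a protease must remove before it can bind. Pdgfc was at 71.2, 74.3 and 70.3 CPM in KO, against 13.8, 14.5 and 12.8 CPM in WT. Every KO library lay above every WT library, and the level was 5.26-fold higher (log2 fold change 2.40 ± 0.07 SE, edgeR adjusted p = 3.17e-08). Its spread between KO libraries, 2.92% of the mean, was the lowest of any member in KO.

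Pdgfa, which encodes the classical alpha-receptor ligand, rose by less. It was at 27.8, 28.5 and 31.4 CPM in KO, against 17.7, 15.3 and 13.4 CPM in WT. The groups did not overlap and differed 1.89-fold (log2 fold change 0.92 ± 0.12 SE, edgeR adjusted p = 0.000145). In GENCODE M21 an antisense gene, 6330403L08Rik, overlaps Pdgfa, with 2861 counts over the KO libraries and 440 over the WT libraries. As the strand setting of the counter is not given in the sources used here, reads of this pair may not be separable.

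Pdgfd, the CUB-domain ligand of the beta receptor, was counted in KO alone. It had 171, 129 and 130 counts in KO (2.92, 2.35 and 2.21 CPM), against 0 counts in each WT library. Taking a floor of 3 counts over the WT group (0.0161 CPM, counting error only), it was at least 154-fold higher in KO (edgeR adjusted p = 1.62e-05). As Pdgfd passed the filter through KO alone, this p-value is no separate support for the difference. Its level in KO was low, and the 95% Poisson interval of the summed counts ran from 2.26 to 2.74 CPM.

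Pdgfb was the one PDGF ligand that fell. It encodes the ligand that binds both receptors and is the chief signal from endothelium to mural cells. Pdgfb was at 0.290, 0.509 and 0.764 CPM in KO, against 3.34, 1.55 and 2.69 CPM in WT, which is 17, 28 and 45 counts in KO and 211, 93 and 169 counts in WT. The groups did not overlap, though the spread was wide, at 45.5% of the mean in KO and 35.9% in WT, the highest of any member. The difference was 4.84-fold (log2 fold change -2.27 ± 0.44 SE, edgeR adjusted p = 0.00177), with a 95% interval of -3.29 to -1.26. Of the cells known to release PDGF-B, 4 platelet markers summed to 14.1 to 15.8 CPM in KO and 6.15 to 8.32 CPM in WT, with Gp9 at 0 in every library. Most of this came from Itga2b, at 13.2 CPM in KO and 6.51 CPM in WT. Of 3 platelet markers tested, Itga2b was higher in KO while Pf4 and Ppbp did not pass (edgeR), or 2 were higher from the deposited FPKM. Of the endothelial markers, Pecam1 averaged 0.647 CPM in KO and 1.53 CPM in WT, Egfl7 averaged 1.31 CPM in KO and 6.88 CPM in WT, and Cdh5 had 0 counts in KO and 61 in WT. Vwf and Eng went the other way, at 0.946 and 133.6 CPM in KO, against 0.15 and 2.42 CPM in WT. Of the 13 markers in that list, 5 were tested, with 2 higher and 3 lower in KO. The part of these cells in the Pdgfb result was not tested.

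Pdgfra, the alpha receptor, showed the largest fold change among members counted in both genotypes. It marks fibroblasts and other mesenchymal cells. Pdgfra was at 861, 803 and 775 CPM in KO, against 52.8, 68.6 and 52.1 CPM in WT. The lowest KO library was thus far above the highest WT library, and the difference was 14.1-fold (log2 fold change 3.81 ± 0.12 SE, edgeR adjusted p = 1.6e-07). From the deposited FPKM, which are per length, the ratio of means was 10.1 in place of 14.1, and FPKM per count of this gene was lower in KO than in WT by 0.37 on the log2 scale, relative to the median gene of each library.

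Most fibroblast markers were higher in KO, as Pdgfra was. Of 10 fibroblast markers 8 were higher and 1, Fbln1, was lower in KO (edgeR), where 35.1% of all tested genes were higher and 34.2% lower. The list summed to 10200 to 11030 CPM in KO and 952 to 1080 CPM in WT. Most of this came from Col1a1 in WT (846 CPM) and from Col1a1, Col3a1 and Dcn in KO (5132, 3712 and 1464 CPM). Lum and Thy1 had 0 counts in WT and averaged 6.18 and 24.8 CPM in KO. Their part in the Pdgfra result was not tested.

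Pdgfrb, the beta receptor of smooth muscle cells and pericytes, rose as well. It was at 796, 740 and 735 CPM in KO, against 113.2, 121.7 and 113.2 CPM in WT. The groups lay far apart, with a spread of 4.48% of the mean in KO and 4.22% in WT, and differed 6.53-fold (log2 fold change 2.71 ± 0.05 SE, edgeR adjusted p = 3.68e-09). Other pericyte markers did not rise with it as a group. Of 5 tested, Rgs5 was higher, Mcam, Cspg4 and Des were lower and Notch3 did not pass, while the list of 8 summed to 125 to 146 CPM in KO and 174 to 222 CPM in WT, with Abcc9 at 0 throughout.

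The genes whose pattern was most like that of Pdgfrb were sought among 10551 protein-coding genes with a mean of at least 5 CPM, by the root mean square difference of gene-centred log2 CPM over the 6 libraries. They were Setbp1 (0.0237), Sdc3 (0.0357), Tgfbr2 (0.0432), Col5a2 (0.0442) and Gng2 (0.0463), each on the log2 scale. Setbp1 averaged 201 ± 11.3 CPM in KO and 30.5 ± 1.08 CPM in WT (SD, n = 3 each). Tgfbr2, the type II receptor for TGF-beta, averaged 264 ± 7.81 CPM in KO and 39.8 ± 2.31 CPM in WT. As the libraries fall into 2 groups, this measure mostly ranks genes by how near their fold change is to 6.53.

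**Figure D2:**
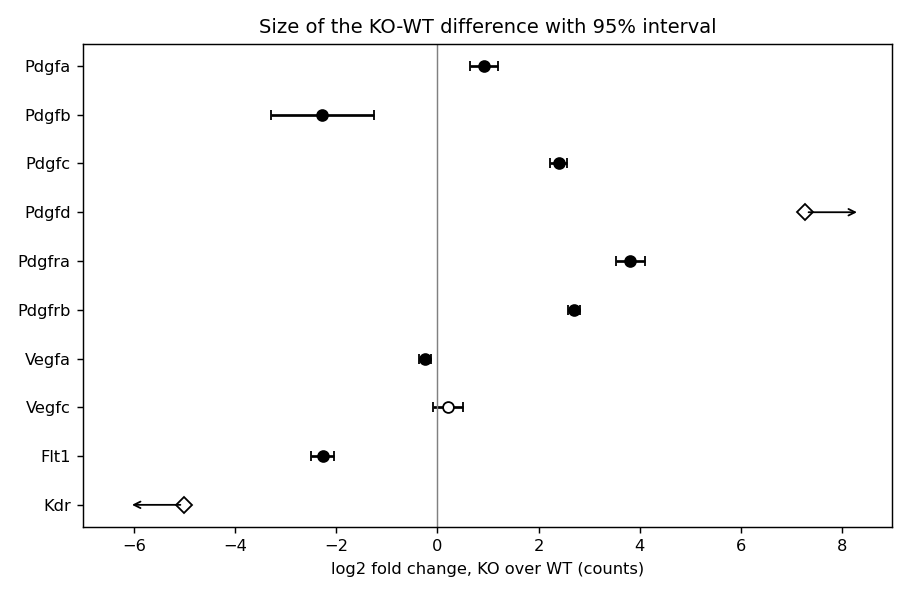
Log2 fold change of each member (KO over WT, x axis) in the edgeR fit, with the 95% interval as a bar. Filled points passed an adjusted p of 0.05 and the open circle (Vegfc) did not, while the diamonds with arrows are bounds for Pdgfd (at least 154-fold higher) and Kdr (at least 32.3-fold lower), each at 0 in 1 genotype.

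Vegfa, the main growth factor for endothelial cells, was abundant in both genotypes and differed little. It was at 314.5, 281.7 and 315.7 CPM in KO, against 355.7, 362.2 and 355.9 CPM in WT. Each KO library lay below each WT library, a 1.18-fold decrease (log2 fold change -0.24 ± 0.05 SE, edgeR adjusted p = 0.00345). The deposited FPKM did not show this decrease. Vegfa was at 152.5, 138.6 and 147.7 FPKM in KO, against 152.5, 158.9 and 133.5 FPKM in WT, where the groups overlapped (limma on log2(FPKM + 0.1), difference -0.02, adjusted p = 0.859). FPKM per count of Vegfa was higher in KO than in WT by 0.34 on the log2 scale, relative to each library's median gene. The gene-level values do not separate the splice forms of Vegfa.

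Vegfc, the ligand that directs lymphatic growth, was at 10.6, 11.6 and 9.69 CPM in KO, against 10.1, 8.15 and 9.30 CPM in WT. The groups overlapped and the difference did not pass the test (log2 fold change 0.21 ± 0.13 SE, edgeR adjusted p = 0.181). The 95% interval of the log2 fold change ran from -0.09 to 0.51, which includes no difference and a modest rise.

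Flt1, the high-affinity VEGF-A receptor, fell. It was at 7.71, 7.77 and 8.48 CPM in KO, against 35.1, 39.5 and 41.2 CPM in WT. All KO libraries lay well below all WT libraries, and the difference was 4.83-fold (log2 fold change -2.27 ± 0.10 SE, edgeR adjusted p = 1.74e-07). Counts per gene do not tell the membrane form from the soluble form.

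Kdr, the main signalling receptor for VEGF-A on endothelium, was near the limit of detection. It had 0 counts in each KO library, against 28, 40 and 36 counts in WT (0.444, 0.667 and 0.573 CPM). The 95% Poisson interval of the summed WT counts ran from 0.457 to 0.678 CPM. Over a floor of 3 counts in the KO group (0.0174 CPM), Kdr was at least 32.3-fold lower in KO (edgeR adjusted p = 0.000566). As Kdr passed the filter through WT alone, this p-value is no separate support for the difference.

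Among the 13 endothelial markers, 5 were tested, of which 2 were higher and 3 lower in KO, or 1 and 3 of 4 from the deposited FPKM. The calls of Vwf (higher) and Tek (lower) were lost when single libraries were left out, each for 4 of the 6. Pecam1 and Egfl7, whose levels stand beside Pdgfb, were 2 of the 3 that fell. Cdh5, the endothelial cadherin, had 0 counts in each KO library and 5, 36 and 20 counts in WT. The list summed to 134.8 to 138.1 CPM in KO and 11.99 to 12.8 CPM in WT, nearly all of it in KO from Eng, a TGF-beta co-receptor that mesenchymal cells also make (133.6 CPM). Tie1, Cldn5 and Sox17 were at 0 in all 6 libraries. The part of these markers in the Flt1 and Kdr results was not tested.

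Levels of different members can be set side by side only per length, on the deposited FPKM scale. In KO the order was Vegfa (146.3 FPKM), Pdgfra (123.0), Pdgfrb (117.3), Pdgfc (19.1), Pdgfa (13.7), Vegfc (3.82), Flt1 (1.02), Pdgfd (0.727), Pdgfb (0.151) and Kdr, listed at 0. In this order Pdgfra and Pdgfrb overlapped between libraries, and no other neighbours did. In WT it was Vegfa (148.3 FPKM), Pdgfrb (19.6), Pdgfra (12.2), Pdgfa (7.54), Flt1 (5.40), Pdgfc (4.07), Vegfc (3.59), Pdgfb (0.792), Kdr (0.0866) and Pdgfd, listed at 0. Here Pdgfc and Vegfc overlapped, and no other neighbours. Both PDGF receptors in KO thus came close to Vegfa, the most abundant member in both genotypes on this scale. When counts were divided by the summed exon length in GENCODE M21, Pdgfrb stood first in KO (138 CPM per kilobase), before Pdgfra (81.1) and Vegfa (70.9), while Vegfa still led in WT (83.5). The place of Vegfa among the receptors in KO therefore depends on the length used.

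**Figure D3:**
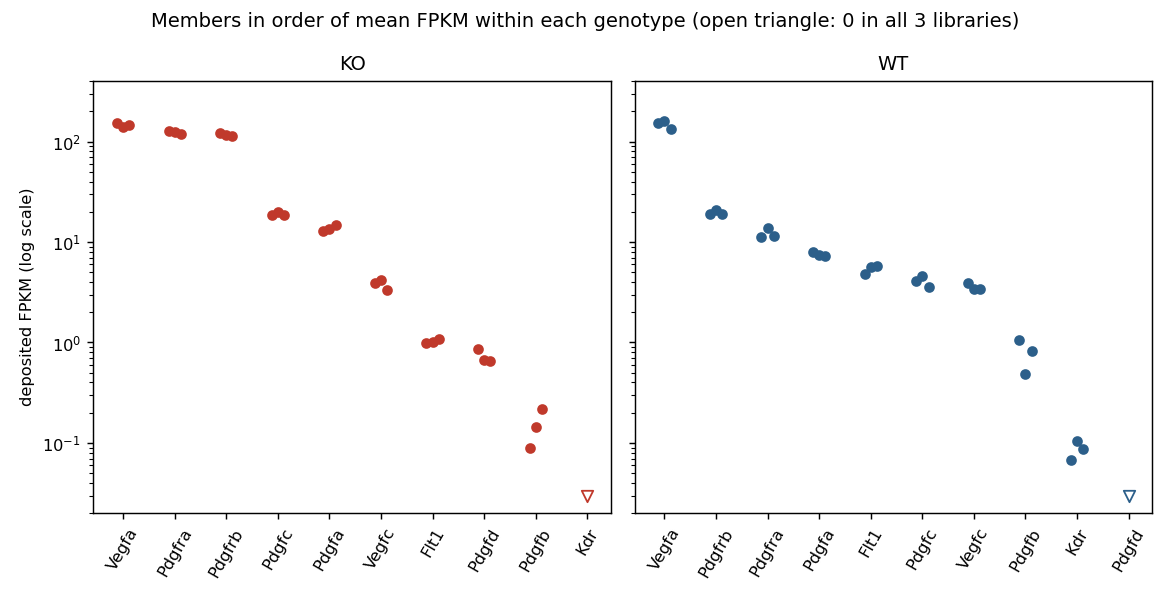
Deposited FPKM (log scale) of the members in each library, KO in the left panel and WT in the right, sorted by the mean of 3 libraries. Open triangles mark Kdr in KO and Pdgfd in WT, which were listed at 0 in all 3 libraries; Pdgfra and Pdgfrb lay at 113.8 to 128.4 FPKM in KO and 11.3 to 20.9 FPKM in WT.

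Ratios within a library show how the members shifted against each other. The ratio of Pdgfra to Pdgfrb was 1.05, 1.07 and 1.03 in KO, against 0.597, 0.666 and 0.601 in WT, on the FPKM scale. From counts per exon length it averaged 0.587 in KO and 0.271 in WT, so its level depends on the length and its direction does not. The 2 PDGF receptors together were 7.73, 6.91 and 6.78 times the 4 PDGF ligands in FPKM in KO, against 2.31, 2.78 and 2.62 times in WT. No KO library overlapped a WT library in either ratio.

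Within the ligands, Pdgfc made up 56.7 ± 1.87% of the summed PDGF ligand FPKM in KO and 32.8 ± 3.40% in WT (SD, n = 3 each), and Pdgfc exceeded Pdgfa in each KO library and in no WT library. The ratio of Vegfa to Flt1 was 155.9, 136.3 and 137.4 in KO, against 31.5, 28.3 and 23.2 in WT. The sum of Vegfa and Vegfc was 150.1 ± 6.87 FPKM in KO and 151.9 ± 13.3 FPKM in WT, and its groups overlapped. The ratio of Vegfa to Vegfc also overlapped, at 38.9, 32.8 and 44.6 in KO, against 38.8, 47.0 and 38.8 in WT. From counts per exon length the same ratio did not overlap, at 16.5 ± 2.39 in KO and 22.5 ± 2.68 in WT. Whether its groups overlap therefore depends on the scale. These ratios were chosen after the members' values were known and were not tested.

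**Figure D4:**
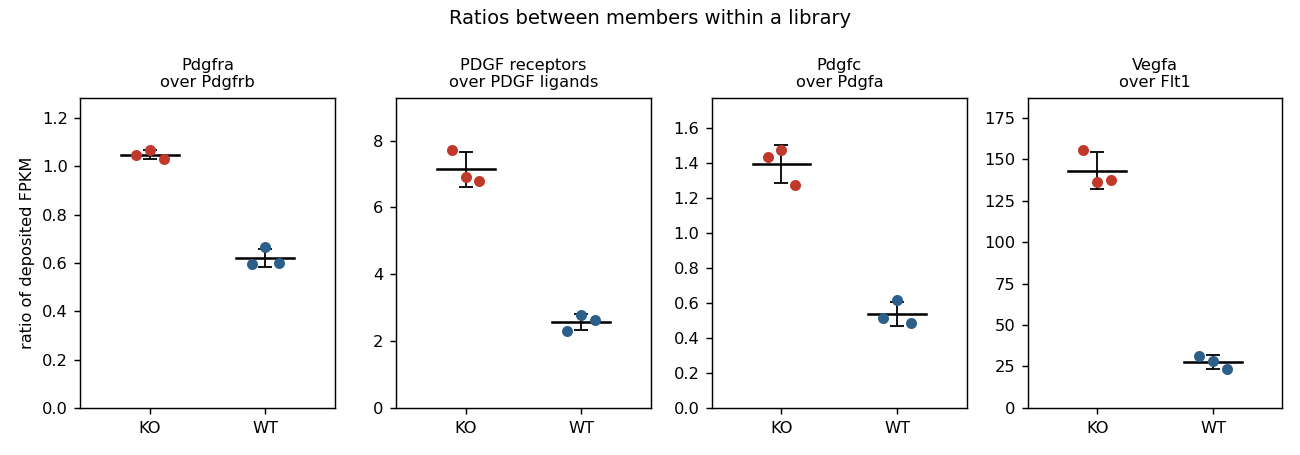
Ratios of deposited FPKM between members within each library (y axes, starting at 0), KO left in red and WT right in blue, with the mean (long bar) and SD (error bar) of 3 libraries. The KO libraries lay above the WT libraries in the 4 ratios drawn, with Vegfa over Flt1 at 136.3 to 155.9 in KO and 23.2 to 31.5 in WT.

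The wider pathway was read from a list of 86 other genes in 7 groups, of which 78 were tested, 45 were higher in KO and 21 lower. That is 84.6% called, beside 69.3% of all tested genes (35.1% higher and 34.2% lower). The shares called were 75.9% of the signal relays and 75.0% of the phosphatases and other brakes, nearer to that background. The other ligands were mostly higher, with 6 of 7 up and none down (5 up with scaling by total counts, Flt3l losing its call). Vegfd, a lymphatic growth factor like VEGF-C, averaged 125 ± 11.5 CPM in KO and 4.90 ± 0.573 CPM in WT (SD, n = 3 each), which is 25.6-fold higher (log2 fold change 4.68 ± 0.11 SE, edgeR adjusted p = 1.12e-08). Pgf, a ligand of FLT1, was 5.44-fold higher, Il34, a ligand of the CSF1 receptor, 3.53-fold, and Vegfb, another FLT1 ligand, 1.495-fold. The lymphatic endothelial markers Prox1 and Lyve1 were at 0 in all 6 libraries, and the list of 4 summed to 123.0 to 125.1 CPM in KO and 0 to 0.0634 CPM in WT, nearly all of it Pdpn, which fibroblasts also make. Csf1, at 432 ± 18.6 CPM in KO and 365 ± 57.4 CPM in WT, did not pass (edgeR adjusted p = 0.0858).

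All 5 tested co-receptors and related receptors were higher in KO, as were 35.1% of all tested genes. Lrp1, an endocytic receptor that joins PDGFRB at the membrane, averaged 5331 ± 212 CPM in KO and 1073 ± 51.9 CPM in WT, which is 4.97-fold higher (log2 fold change 2.31 ± 0.05 SE, edgeR adjusted p = 6e-09). The VEGF co-receptors Nrp2 and Nrp1 were 4.22-fold and 1.61-fold higher, and Pdgfrl, a receptor-like protein, 1.84-fold. Csf1r, the neighbour of Pdgfrb in the genome and of the same receptor class, averaged 3.29 ± 0.496 CPM in KO and 0.157 ± 0.0806 CPM in WT. The macrophage genes Ptprc, Adgre1 and C1qa were at 0 in all 6 libraries, and the list of 8, Csf1r included, summed to 7.35 to 8.98 CPM in KO and 61.9 to 73.8 CPM in WT, where most came from Cd74. Kit and Flt3, the other receptors of that class, and Flt4, the VEGF-C receptor, had at most 8 counts in any library and were not tested.

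Proteases that activate the ligands changed in both directions, with 5 of 7 tested higher and 1 lower. Scaled by total counts or taken from FPKM, the numbers were 5 and 2. Of all tested genes, 35.1% were higher and 34.2% lower. Adamts3 and Pcsk6, among the higher ones, passed the filter through KO alone, so that their difference was a condition of their being tested. Plat, tissue plasminogen activator, which can activate PDGF-C, averaged 129 ± 0.423 CPM in KO and 54.7 ± 2.50 CPM in WT (SD, n = 3 each), 2.36-fold higher. Plau, urokinase, which can activate PDGF-D, was the 1 that fell, at 11.6 ± 2.34 CPM in KO and 22.5 ± 1.11 CPM in WT, 1.94-fold lower (edgeR adjusted p = 0.000448). Adamts3 and Ccbe1, which together activate VEGF-C, were both higher. Adamts3 averaged 15.7 CPM in KO with 0 counts in WT, at least 972-fold higher, and Ccbe1 averaged 30.8 CPM in KO and 0.777 CPM in WT, 39.7-fold higher. Pcsk6, a proprotein convertase, averaged 2.87 CPM in KO and had 0 counts in WT, at least 178-fold higher.

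All 7 tested matrix proteins known to bind these ligands were higher in KO, as were 35.1% of all tested genes. Sparc, which binds PDGF-B and VEGF-A, was 11.6-fold higher, Adamts1, which binds VEGF-A, 8.80-fold, Thbs1, thrombospondin 1, 23.9-fold, and Igfbp7 4.17-fold. Thbs2, named after its values were seen, averaged 881 ± 36.6 CPM in KO and 0.323 ± 0.318 CPM in WT, where replicate 2 had 0 counts.

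Signal relays below the receptors moved both ways. Of 29 tested, 10 were higher, 12 lower and 7 did not pass, or 8 higher and 15 lower with scaling by total counts. Akt1 was 2.21-fold and Pik3r1, the regulatory subunit of phosphoinositide 3-kinase, 2.48-fold higher, while the adaptor Crkl was 2.46-fold lower. Of 12 phosphatases and other brakes, 5 were higher and 4 lower, Cblb among the lower ones losing its call when any 1 of 5 libraries was left out. Rasa1, a Ras GTPase-activating protein that docks on PDGFRB, was 3.02-fold higher. The phosphatases Ptprj, Ptpn11 and Ptpn2 were 3.21-fold, 2.02-fold and 1.77-fold lower.

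Among 11 tested regulators of VEGF transcription and transcript stability, 7 were higher and 4 lower. Scaled by total counts or taken from FPKM, the numbers were 5 and 4, with Arnt and Vhl losing their calls. Of all tested genes, 35.1% were higher and 34.2% lower. Hif1a, the hypoxia-inducible factor subunit that drives Vegfa, averaged 640 ± 18.8 CPM in KO and 303 ± 23.4 CPM in WT (SD, n = 3 each), 2.11-fold higher (edgeR adjusted p = 7.96e-07). The prolyl hydroxylases Egln3 and Egln1, which mark HIF proteins for destruction, were 19.2-fold and 1.76-fold higher. Zfp36l1, an RNA-binding protein that destabilizes Vegfa transcript, averaged 320 ± 30.2 CPM in KO and 17.6 ± 3.48 CPM in WT, 18.1-fold higher. Epas1, the HIF-2 alpha gene, named after its values were seen, averaged 7.55 ± 0.685 CPM in KO and 0.154 ± 0.169 CPM in WT. Vegfa itself lay within 1.18-fold between the genotypes.

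**Figure D5:**
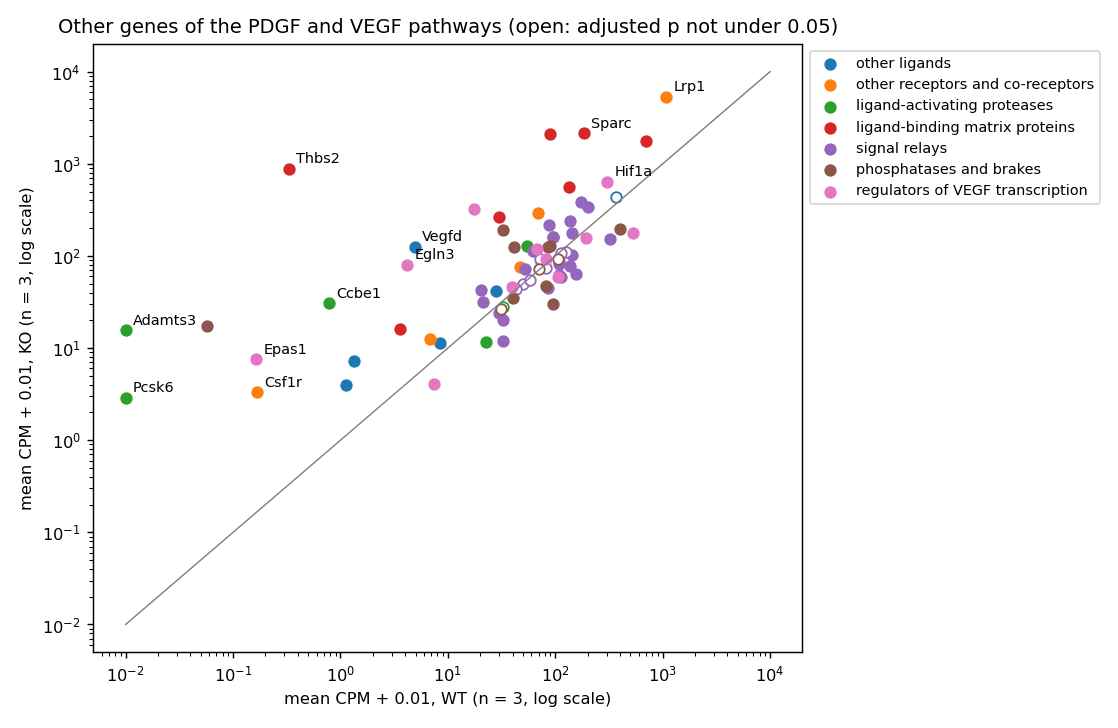
Mean CPM + 0.01 of the 78 tested genes of the wider pathway, KO on the y axis and WT on the x axis (both log scale, n = 3 libraries each), coloured by group, with the grey line marking equal levels. Open points did not pass an adjusted p of 0.05; Lrp1 lay highest, at 5331 CPM in KO and 1073 CPM in WT, and Adamts3 and Pcsk6 lie at the left edge, at 0 counts in WT.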

How the data were processed

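The 6 libraries came from cultured mouse cells, 3 KO and 3 WT, grouped by their titles. Per the file headers, the deposited table lists unnormalized counts of reads and FPKM by Ensembl gene. The deposited FPKM were normalized by the authors, with lengths and totals not given in the sources used here. Build GRCm39 and the tools HISAT2, edgeR, CASAVA 1.8 and SAMtools 1.3.1 are named per the submitters' processing notes, which state no roles. Neither the counter nor its strand setting or annotation is stated.

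Symbols came from GENCODE M21 (98.23% of 56393 IDs matched), which is of build GRCm38 and also gave exon lengths, overlapping genes and neighbours, with no coordinates printed from it. Counts were filtered with filterByExpr (18732 genes), scaled with TMM and tested for KO against WT in edgeR 4.0.16 (R 4.3.3; robust quasi-likelihood, no covariates), with Benjamini-Hochberg adjustment at 0.05 over all tested genes. The standard error is the log2 fold change over the root of F. Alternatives used DESeq2 1.42.0 and limma 3.58.1. The chi-square per degree of freedom between replicates was 20.7 to 31.6, above sampling noise. Floors and Poisson intervals cover counting error only, since PCR duplicates are not independent molecules.

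The members, lists, named genes and alternatives were chosen with earlier results of these data known. Named were all members, Nono, up to 4 genes with the smallest adjusted p in each pathway group (all in groups of 6 or fewer tested), and the 5 genes most like Pdgfrb. A signal relay that this rule selects is not reported here. Genes counted singly in a list, marker, Y-linked and neighbouring genes, Thbs2, Epas1, Csf1, Flt4, Kit and Flt3 were named after their values were seen.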

Additional observations from a re-analysis of the deposited data

How the results depend on the processing

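Each member kept its direction under all alternatives that could test it (15, and 13 for Kdr, which the FPKM filter removed). The 5 higher members were called under all 15. The count of lower members was 4, or 2 under limma on log2(FPKM + 0.1) and on log2(FPKM + 1), where Kdr was not tested and Vegfa lost its call (difference -0.02, adjusted p = 0.859 in both). In its other 13 alternatives Vegfa was called at adjusted p of 0.000259 to 0.0139 with log2 fold changes of -0.37 to -0.18. Vegfc was called in none (adjusted p 0.12 to 0.59). Leaving out each library in turn lost no member's call. Pathway genes higher in KO numbered 40 to 47 and lower ones 20 to 26. Scaling by total counts moved the median log2 fold change of all tested genes to -0.10, against 0.03; no member changed sign. By counts per exon length, 6 of 10 members kept their place in the KO order by FPKM and 7 in the WT order.

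The labels do not say that replicate numbers pair the libraries. Deviations of same-numbered KO and WT libraries correlated at -0.0237 to 0.018, and not every library correlated best with its own number. With 3 libraries per genotype, this check cannot decide whether they were paired. With the replicate block, 5 members were higher and 4 lower, as without it. Depth limits Kdr, Pdgfd and Pdgfb, which had at most 211 counts in a library.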

Other observations

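Pdgfra, Kit and Kdr are consecutive protein-coding genes on chromosome 5 in GENCODE M21, and their transcripts did not move together. Pdgfra had 140318 counts over the KO libraries and 10719 over the WT libraries, Kit had 5 in KO and 0 in WT, and Kdr had 0 in KO and 104 in WT. Of 9 other protein-coding genes in and around this stretch (Kit and the 4 on each side), 2 were higher in KO, 2 lower and 2 did not pass (edgeR), while 3 were not tested. Chic2, near Pdgfra, averaged 66.1 ± 1.34 CPM in KO and 64.9 ± 5.57 CPM in WT (SD, n = 3 each), and Clock, beyond Kdr, 78.3 ± 4.69 CPM in KO and 127 ± 20.6 CPM in WT. Around Pdgfrb on chromosome 18, 4 of the 8 nearest protein-coding genes were higher, 1 was lower and 3 were not tested. The background for both regions is 35.1% of all tested genes higher and 34.2% lower. Arsi, an arylsulfatase gene, averaged 3.31 ± 1.15 CPM in KO and had 0 counts in WT, while Hmgxb3 averaged 86.0 CPM in KO and 95.3 CPM in WT. These neighbours were chosen after the members' values were known, and no test of position was made.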
